A study of Homo sapiens with 15 samples.

Results

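TOP2A, MKI67 and the 8 condensin subunits SMC2, SMC4, NCAPD2, NCAPD3, NCAPG, NCAPG2, NCAPH and NCAPH2 are genes whose products shape and individualize mitotic chromosomes. They were taken by gene name from a table of 60558 genes, and all 10 were present and passed the filter on low values. Their mRNA levels were followed in RPE1-hTERT cells, an established telomerase-immortalized line derived from human retinal pigment epithelium, before, during and after overproduction of cyclin E1. Every library came from cells that carry a human CCNE1 cDNA under doxycycline control in the pINDUCER20 vector, so the control cells carry the construct too. With no cells given doxycycline without the construct, effects of the drug and of cyclin E1 cannot be told apart. There were 15 RNA-seq libraries, 3 in each of 5 groups. Control cells received no doxycycline. Acute cells had 2 d of 20 ng/ml doxycycline, cells in proliferative crisis had 15, 18 and 18 d, and adapted cells had 39, 41 and 51 d. Recovery cells were grown for 31, 42 and 46 d with the drug and then for 18, 46 and 17 d after its removal. The durations are those of the sample labels, and the text of the study gives other ones for crisis, adapted and recovery cells. By the study's methods the inducible cells were isolated as colonies from single cells, and replicates came from adaptations started at different times. The sources used here do not say whether all 15 libraries derive from 1 clone.

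Condensins are ring-shaped ATPases that extrude loops of DNA and compact chromosomes in mitosis. SMC2 and SMC4 form the ATPase core of both complexes. Condensin I adds the kleisin NCAPH and the HEAT-repeat subunits NCAPD2 and NCAPG and reaches the chromosomes after the nuclear envelope breaks down, whereas condensin II adds NCAPH2, NCAPD3 and NCAPG2 and is nuclear throughout the cell cycle. TOP2A, topoisomerase II alpha, passes DNA strands through each other and removes the links between sister chromatids. MKI67 encodes Ki-67, the proliferation antigen that coats mitotic chromosomes and keeps them apart. The mRNAs of TOP2A and MKI67 are known to peak in G2 and M phase, under the cell cycle genes homology region (CHR) and CCAAT boxes that are read by the DREAM and MYB-MuvB complexes and by NF-Y.

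The promoters of 4 of the genes are printed to show how the 2 kinds of motif are spread over them. Each window runs from 250 bases before to 50 bases after the annotated start in RefSeq on GRCh38.p14, written 5′ to 3′ on the coding strand. Capitals mark matches to the CHR (TTTGAA) or the CCAAT box (CCAAT) on either strand, so that TTCAAA and ATTGG are matches on the other strand. The TOP2A window is chr17:40417847-40418146 on the minus strand, and the MKI67 window is chr10:128126374-128126673 on the minus strand. The NCAPG window is chr4:17810729-17811028 and the NCAPH window chr2:96335516-96335815, both on the plus strand.
TOP2A: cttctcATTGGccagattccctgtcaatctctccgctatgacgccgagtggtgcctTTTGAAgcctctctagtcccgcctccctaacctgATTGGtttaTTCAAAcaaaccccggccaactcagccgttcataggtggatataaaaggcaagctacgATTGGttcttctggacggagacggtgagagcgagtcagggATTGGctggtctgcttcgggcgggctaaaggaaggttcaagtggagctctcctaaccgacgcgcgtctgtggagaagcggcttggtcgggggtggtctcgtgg
MKI67: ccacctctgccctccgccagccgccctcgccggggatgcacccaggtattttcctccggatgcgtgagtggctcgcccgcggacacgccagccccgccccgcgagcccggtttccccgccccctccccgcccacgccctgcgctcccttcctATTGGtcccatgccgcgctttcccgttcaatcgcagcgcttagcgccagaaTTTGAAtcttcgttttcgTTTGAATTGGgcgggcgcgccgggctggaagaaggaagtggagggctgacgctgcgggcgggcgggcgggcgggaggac
NCAPG: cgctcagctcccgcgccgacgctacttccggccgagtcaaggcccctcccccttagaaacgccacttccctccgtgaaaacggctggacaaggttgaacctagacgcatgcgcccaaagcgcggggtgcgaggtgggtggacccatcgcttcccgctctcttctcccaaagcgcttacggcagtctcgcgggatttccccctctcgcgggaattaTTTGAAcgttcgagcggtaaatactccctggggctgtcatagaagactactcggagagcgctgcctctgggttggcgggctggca
NCAPH: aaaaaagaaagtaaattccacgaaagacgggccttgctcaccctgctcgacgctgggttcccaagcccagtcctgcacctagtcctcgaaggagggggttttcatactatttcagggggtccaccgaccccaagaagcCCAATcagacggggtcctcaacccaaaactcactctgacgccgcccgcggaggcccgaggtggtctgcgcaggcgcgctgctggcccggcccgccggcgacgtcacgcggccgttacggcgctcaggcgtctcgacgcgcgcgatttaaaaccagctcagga
TOP2A had 2 CHR and 4 CCAAT matches. MKI67 had 2 of each, and its second CHR, with its first base at -29, shares a letter with the CCAAT match at -24. NCAPG had a single CHR at -35 and no CCAAT match, and NCAPH had a single CCAAT match at -112 and no CHR.

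On hg38 with the GENCODE annotation, TOP2A lies at chr17:40388525-40417896 and MKI67 at chr10:128096659-128126423, both on the minus strand. NCAPG lies at chr4:17810979-17844865 and NCAPH at chr2:96335766-96377091 on the plus strand. SMC2 is on chromosome 9, SMC4 on 3, NCAPD2 on 12, NCAPD3 on 11, NCAPG2 on 7 and NCAPH2 on 22, so no pair shares a chromosome. Named pseudogenes of MKI67, NCAPD2, NCAPG and SMC4 were at or below 0.241 TPM in every library.

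Windows were found for 9 of the 10 genes, 12 windows in all, with NCAPH2 named only. A CHR was present in 8 of the 12 windows, 1 for each gene but NCAPH, while 15.2% of 35116 RefSeq windows of the same length held one. A CCAAT box was present in 5 of the 12 (TOP2A, MKI67, NCAPD2, NCAPD3 and NCAPH) against 34.6% of windows. Both motifs stood in 4 of the 12 (TOP2A, MKI67, NCAPD2 and NCAPD3) against 5.9% of windows. NCAPD2 had 4 CCAAT matches and a CHR at -145. An E2F site, searched on both strands as TTTCCCGC, TTTCGCGC, TTTGGCGC or TTTGCCGC, was found only in NCAPD3, at -249, and in 3.3% of windows. The genes with more than 1 window (SMC2, SMC4 and NCAPD3) had a match in 1 window and none in the other. A match describes these letters and does not show that a factor binds there.

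**Figure D1:**
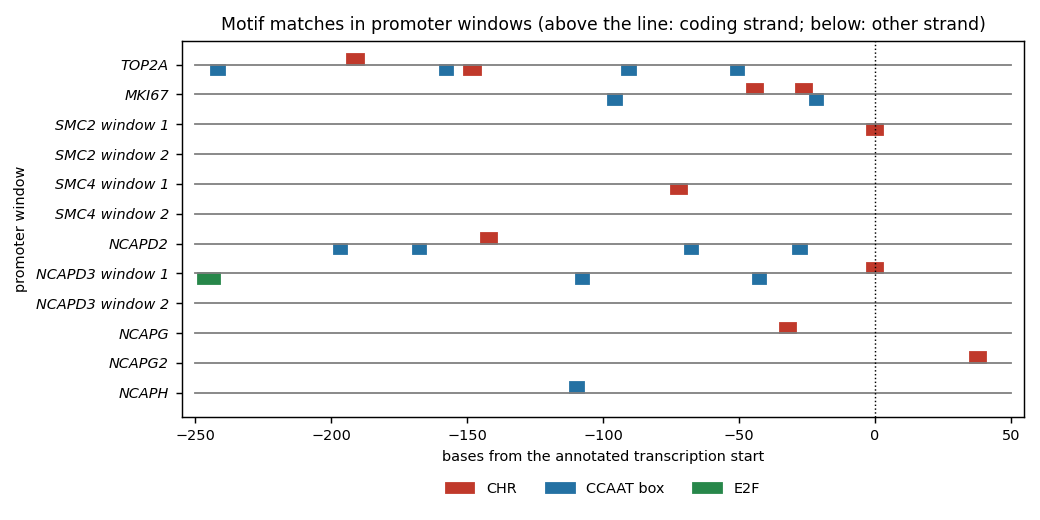
Matches to the CHR, CCAAT box and E2F motifs in 12 promoter windows of 9 genes, plotted by distance in bases from the annotated transcription start. Boxes above a line are matches on the coding strand and boxes below it on the other strand. A CHR is drawn for every gene except NCAPH, and TOP2A and NCAPD2 carry 4 CCAAT boxes each.

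Library totals were 999659 to 999725 in units of TPM, the abundance of a transcript scaled by its length to a common total, and 26841 to 28725 genes were above 0 in each. TPM keeps no record of read depth, so the counting error behind each value is unknown. The induced gene CCNE1 was at 6.27 to 7.88 TPM in control cells, 136 to 163 in acute cells, 32.9 to 44.9 in crisis, 42.6 to 43.3 in adapted cells and 5.49 to 5.93 in recovery cells. Of 9 pigment epithelium markers, RPE65 was listed at 0 in every library, RLBP1, TYR, TTR and LRAT stayed at or below 0.484 TPM, PMEL, BEST1 and SERPINF1 reached 1.32, 1.51 and 4.64 TPM, and only MITF was well expressed (13.8 to 26.1 TPM). Keratins KRT8 (409 to 568 TPM) and KRT18 (293 to 460 TPM) were high, while the epithelial markers EPCAM and CDH1 stayed at or below 0.369 TPM. Among mesenchyme markers VIM (3924 to 4936 TPM) and COL1A1 (9.41 to 27.5 TPM) were expressed, and COL1A2, DCN and LUM were at or below 1.08 TPM. Markers of leukocytes and endothelium such as PTPRC were at or below 0.855 TPM apart from CD68 (44.1 to 73.9 TPM). The leukocyte list, nearly all of it CD68, summed to 63.3 to 74.0 TPM in control, 48.6 to 67.7 in acute, 48.9 to 58.2 in crisis, 44.2 to 56.9 in adapted and 52.9 to 59.7 in recovery libraries, while CD3E was at 0. The libraries were also unlike in base composition. Over 10185 genes, GC content was set against how far each gene lay from its 15-library mean, and the Spearman correlation was 0.69 and 0.58 in control replicates 1 and 2 but -0.14 in replicate 3. It was -0.44, 0.04 and 0.52 in the acute libraries, 0.43, 0.60 and -0.41 in crisis, and between -0.55 and -0.17 in all 6 adapted and recovery libraries.

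All 10 genes were well expressed. TPM is scaled to transcript length, so levels can be set side by side between genes. TOP2A had the highest mean over the 15 libraries (219 TPM, rank 574 of all genes), followed by SMC4 and NCAPD2 (203 TPM each) and MKI67 (128 TPM). NCAPH (52.5 TPM), NCAPG (50.1) and NCAPG2 (49.0) formed a middle tier and were followed by NCAPD3 (38.9), SMC2 (33.3) and NCAPH2 (21.9). The ranges over libraries of TOP2A, SMC4 and NCAPD2 overlapped, as did those of NCAPH, NCAPG and NCAPG2, so the order within each tier is smaller than the spread between libraries. The core subunits were unequal at the mRNA level, with 5.71 ± 0.23 (SD, n = 3) SMC4 transcripts for each SMC2 transcript in control cells.

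Each group was compared with control in a limma fit of log2(TPM + 1) over the 10196 genes that averaged 5 TPM or more. Calls required an adjusted p (Benjamini-Hochberg) below 0.01. None of the 10 genes was called in any of 7 comparisons, and few genes of any kind were. Against control, 5 genes (0.049%) were called in acute cells, 4 (0.0392%) in crisis, 5 (0.049%) in adapted cells and 4 (0.0392%) in recovery cells, and CCNE1 was among them in acute, crisis and adapted cells. Between successive stages, 1 gene (0.00981%) was called in crisis against acute, 0 (0%) in adapted against crisis and 3 (0.0294%) in recovery against adapted. At an unadjusted p under 0.05, adapted cells had 183 genes higher and 824 lower than in crisis. The values below are therefore levels, differences and their intervals. All 4 comparisons with control share the same 3 control libraries.

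TOP2A was at 184, 158 and 202 TPM in control cells and at 351, 240 and 223 TPM in acute cells. Acute replicate 1 stood far above the other acute libraries, yet all 3 were above every control library. Crisis libraries (197, 179 and 222 TPM) overlapped the controls, adapted libraries (229, 265 and 216 TPM) lay above them, and recovery libraries (196, 214 and 212 TPM) overlapped them again. Group means were 181 ± 22.0 TPM in control and 271 ± 69.7 TPM in acute cells (SD, n = 3). In log2 terms the acute level differed from control by 0.56 (95% interval 0.26 to 0.85, adjusted p = 0.249), which ranked 43 of 10196 genes by p. Without acute replicate 1 the difference was 0.36. The adapted level differed from control by 0.38 (0.08 to 0.68, adjusted p = 0.160), or 0.24 (adjusted p = 0.362) after a trend with GC content was removed, and the crisis level from the acute by -0.42 (-0.72 to -0.12, adjusted p = 0.696), or -0.22 without acute replicate 1.

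MKI67 varied less. It was at 127, 105 and 117 TPM in control cells, 157, 140 and 126 in acute cells, 118, 128 and 133 in crisis, 133, 146 and 119 in adapted cells and 120, 136 and 110 in recovery cells. Every group overlapped the controls. The largest difference from control was in acute cells, 0.28 on the log2 scale (0.05 to 0.50, adjusted p = 0.483). The ratio of TOP2A to MKI67 was 1.56 ± 0.15 (control), 1.91 ± 0.29 (acute), 1.58 ± 0.16 (crisis), 1.78 ± 0.05 (adapted) and 1.71 ± 0.20 (recovery; SD, n = 3). The control range of 1.45 to 1.73 overlapped that of every group.

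**Figure D2:**
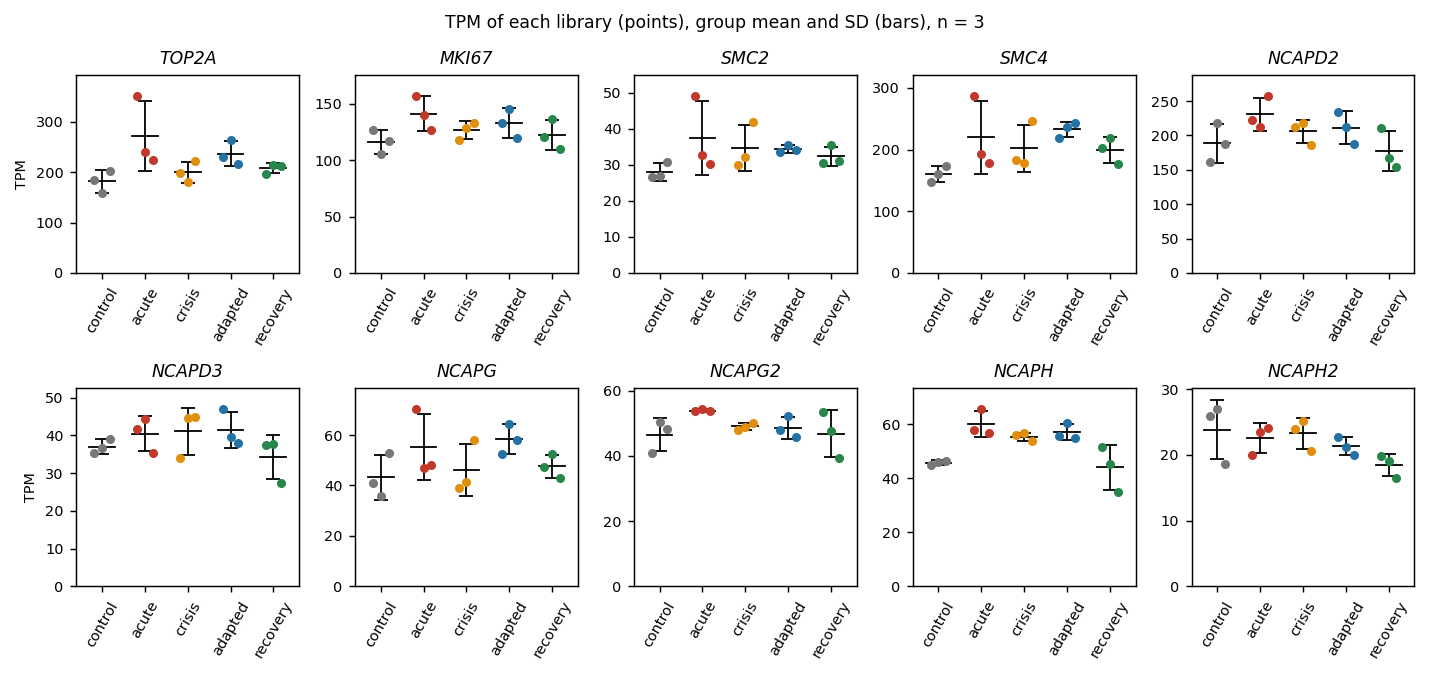
TPM of the 10 genes in each library (points), with the mean and SD of the 3 libraries of each group (bars), on axes that start at 0. NCAPH lies above 53 TPM in every acute, crisis and adapted library and at or below 51.5 TPM in every control and recovery library. Acute replicate 1 is the highest point for TOP2A, MKI67, SMC2, SMC4 and NCAPG.

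The SMC subunits, which both complexes share, varied with TOP2A. SMC4 was at 147, 160 and 174 TPM in control cells, 287, 193 and 178 in acute cells, 183, 178 and 246 in crisis, 219, 237 and 243 in adapted cells and 202, 219 and 176 in recovery cells. All 12 libraries taken after induction were above all 3 control libraries. This separation was noticed after the values were seen. It held for 194 of 10196 genes (1.9%), and was lost for SMC4 once a trend with GC content was removed from each library. SMC4 in adapted cells gave the smallest adjusted p of the 10 genes in any comparison, at 0.0842, with a log2 difference from control of 0.54 (0.22 to 0.86). After the GC correction it was 0.38 (adjusted p = 0.159), and over all alternatives its adjusted p ran from 0.0235 to 0.359. SMC2 was at 26.5, 26.7 and 30.9 TPM in control cells, and at 49.1, 32.8 and 30.1 in acute cells, so the acute difference of 0.37 (0.05 to 0.69) was 0.16 without acute replicate 1. In SMC4 that omission left 0.22 of 0.43. SMC2 was at 29.8, 32.2 and 41.9 TPM in crisis and 30.5, 35.4 and 31.1 TPM in recovery cells, and it was above every control library only in adapted cells (33.5, 35.5 and 34.1 TPM). SMC4 transcripts per SMC2 transcript came to 6.78 ± 0.30 in adapted cells, 6.55 to 7.12 against 5.55 to 5.97 in control cells.

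Among the subunits of condensin I, the kleisin NCAPH separated the cells by doxycycline. It was at 44.7, 46.0 and 46.4 TPM in control cells, 58.0, 65.6 and 56.9 in acute cells, 55.9, 56.6 and 53.8 in crisis, 55.8, 60.4 and 55.1 in adapted cells and 51.5, 45.5 and 35.1 in recovery cells. Means were 45.7 ± 0.88 TPM in control and 60.2 ± 4.76 TPM in acute cells (SD, n = 3). All 9 libraries on doxycycline were above all 6 without it. This was also noticed after the values were seen. It was true of 15 of 10196 genes (0.147%), and NCAPH remained among the 20 genes for which it was true after the GC correction. Log2 differences from control were 0.39 (0.15 to 0.62, adjusted p = 0.277) in acute, 0.27 (0.04 to 0.50, adjusted p = 0.373) in crisis and 0.31 (0.08 to 0.54, adjusted p = 0.147) in adapted cells. Recovery cells differed from adapted cells by -0.38 (-0.62 to -0.15, adjusted p = 0.348), which was -0.23 without recovery replicate 3. Of the 9 genes with a promoter window, NCAPH alone had no CHR in any window. A link between this and its level was not tested.

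NCAPG, a HEAT-repeat subunit of condensin I, had the widest relative spread among control libraries, at 40.8, 35.9 and 52.9 TPM. It was at 70.3, 47.1 and 48.2 TPM in acute cells, 39.2, 41.3 and 58.2 in crisis, 52.5, 64.5 and 57.9 in adapted cells and 47.5, 52.3 and 42.9 in recovery cells. The adapted difference was 0.44 (0.08 to 0.80, adjusted p = 0.173), or 0.29 after the GC correction, with ranges that overlapped. The acute difference was 0.34 (-0.02 to 0.70), and 0.16 without acute replicate 1 or 0.22 without control replicate 2. NCAPD2, the other HEAT-repeat subunit, was at 161, 218 and 187 TPM in control cells and at 223, 212 and 258 in acute cells. Later libraries were at 212, 218 and 187 TPM in crisis, 234, 213 and 187 in adapted cells and 211, 167 and 155 in recovery cells, so every group overlapped the controls. Its acute difference was 0.29 (0.02 to 0.57, adjusted p = 0.530), and 0.19 without control replicate 1. By gene span, introns included, NCAPD2 overlaps MRPL51, transcribed from the opposite strand at 432 TPM, over 486 bases. How much of this is shared exon was not determined, and the sources used here do not give the strand setting of the counting. Its level is therefore uncertain by an amount that is not known. The same holds for SMC4, which overlaps IFT80 by 607 bases and TRIM59 by 2510, for NCAPG, which overlaps LCORL by 3679, and for NCAPH2, which overlaps SCO2 by 1213.

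NCAPG2, a subunit of condensin II, was at 40.7, 50.4 and 48.4 TPM in control cells and at 53.7, 54.3 and 53.7 TPM in acute cells, which were closely spaced and above all controls, a difference of 0.21 (-0.01 to 0.44, adjusted p = 0.559) that was 0.12 without control replicate 1. After the GC correction the acute and control ranges overlapped. Its crisis, adapted and recovery levels were within 0.08 of control on the log2 scale. NCAPD3 ranged from 27.5 to 47.0 TPM over the 15 libraries and overlapped control in every group, with differences between -0.12 and 0.16. JAM3 and VPS26B, transcribed from the opposite strand, overlap it by 1889 and 834 bases of gene span, introns included. NCAPH2, the kleisin of condensin II, was the only gene with a mean below control in all 4 comparisons. It was at 25.9, 26.9 and 18.6 TPM in control cells, 20.0, 23.5 and 24.1 in acute cells, 24.0, 25.2 and 20.6 in crisis, 22.8, 21.2 and 20.0 in adapted cells and 19.8, 19.0 and 16.5 in recovery cells. The recovery cells differed from control by -0.34 (-0.62 to -0.06, adjusted p = 0.117), or -0.09 after the GC correction. Control replicate 3 lay within the recovery range. After the correction its differences in acute, crisis and adapted cells were 0.06, 0.07 and 0.08, so its direction depends on that step.

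The ratio of the mean TPM of the condensin I subunits to that of the condensin II subunits was 2.58 ± 0.15 (control), 2.97 ± 0.28 (acute), 2.72 ± 0.16 (crisis), 2.93 ± 0.05 (adapted) and 2.71 ± 0.15 (recovery; SD, n = 3). In adapted cells it ranged from 2.89 to 2.98, above the control range of 2.42 to 2.70, while acute, crisis and recovery libraries overlapped the controls. The kleisin ratio NCAPH to NCAPH2 was 1.98 ± 0.45 in control and 2.68 ± 0.20 in adapted cells, with ranges that overlapped (1.71 to 2.49 and 2.45 to 2.85), and it rests in part on NCAPH2, whose direction turned with the GC correction. NCAPD2 to NCAPD3 was 5.09 ± 0.74 in control and 5.09 ± 0.23 in adapted cells. NCAPG to NCAPG2 was 0.94 ± 0.20 (0.71 to 1.09) in control and 1.20 ± 0.09 (1.10 to 1.27) in adapted cells. The ratio of means thus does not describe every pair, and it is weighted to NCAPD2, the most abundant of these subunits. No test was made of these ratios, and they were not computed again after the GC correction, although the libraries differed in base composition.

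Read as a group, 9 of the 10 means were higher in acute cells than in control, beside 6775 of all 10196 genes tested. The median log2 difference was 0.32 against 0.06 over all genes tested. At an unadjusted p under 0.05, 6 of the 10 were higher (7.52% of all genes), and 4 did not overlap the controls (9.83%). In crisis 9 were higher in mean, beside 7125 of 10196 genes, with a median of 0.13 against 0.08. There 2 of 10 were higher at an unadjusted p under 0.05 (9.32%) and 2 were without overlap (13%). In adapted cells 9 were higher, beside 5980 of 10196 genes, with a median of 0.24 against 0.05. At that p 4 were higher (11.4%), and 4 were without overlap (13.5%). In recovery cells 6 were higher and 4 lower, beside 6385 and 3811 of 10196 genes, with a median of 0.04 against 0.08. There 0 were higher (19.7%) and 1, NCAPH2, was lower (8.88%) at that p, and 1, SMC4, lay above every control (18.8%). Rescaling the libraries by median-of-ratios factors moved the median of all genes in acute cells from 0.06 to -0.00, where 3 of 10 genes were then higher at an unadjusted p under 0.05 against 3.56% of all genes. It left 0 of 10 in crisis. Without acute replicate 1, 3 of 10 were higher in acute cells, against 4.41%.

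From acute to crisis, 8 of 10 means were lower, beside 4588 of 10196 genes, with a median of -0.12 against 0.02 over all genes. At an unadjusted p under 0.05, TOP2A alone was lower (2.15%), and TOP2A, NCAPG2 and NCAPH did not overlap (4.09%). Without acute replicate 1 the median was -0.07 and 0 of the 10 genes were lower at an unadjusted p under 0.05. From crisis to adapted, 8 means were higher, beside 4177 of 10196 genes, with a median of 0.04 against -0.04 over all genes. In that step 0 were higher at an unadjusted p under 0.05 (1.79%). From adapted to recovery, all 10 means were lower, beside 4139 of 10196 genes, with a median of -0.22 against 0.03 over all genes. NCAPH was lower at an unadjusted p under 0.05 (2.06%). Groups did not overlap for 6 of 10 genes, TOP2A, SMC4, NCAPD3, NCAPG, NCAPH and NCAPH2 (3.33%). Recovery replicate 3 had the lowest of the 15 values for 5 genes and was below the 15-library mean for all 10. Without it, 9 of 10 means in recovery were lower than in adapted cells, with a median of -0.14 against 0.01 over all genes. Against control 9 of 10 were then higher, with a median of 0.13 against 0.065.

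**Figure D3:**
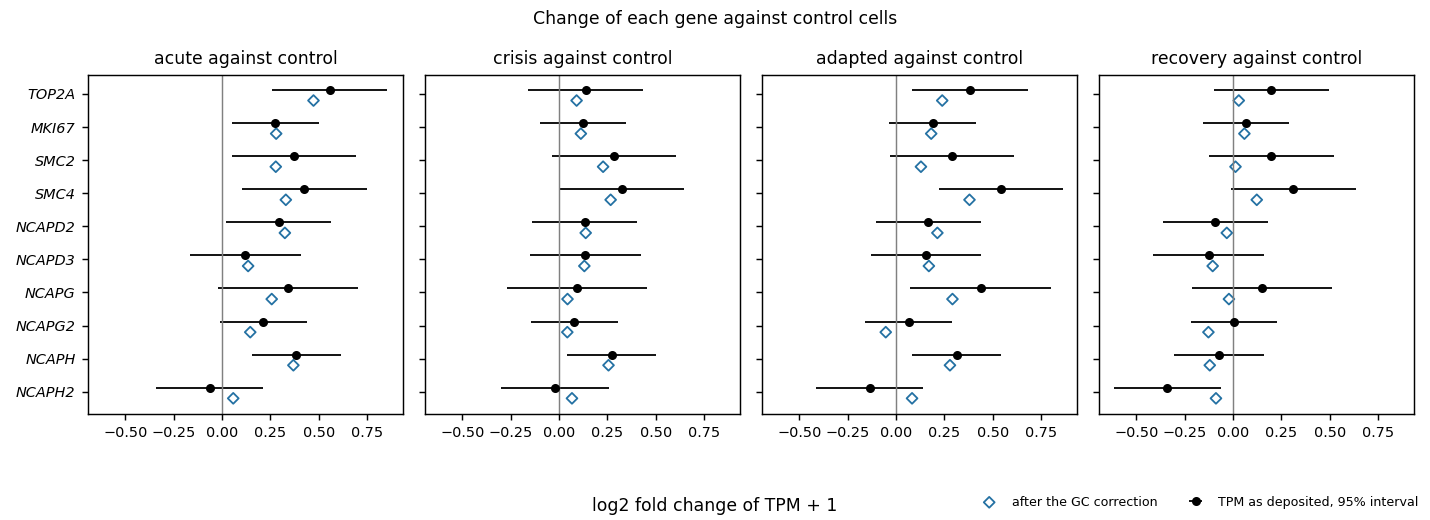
Log2 fold change of TPM + 1 against control for each gene in the 4 later groups. Black points are estimates with 95% intervals from limma, and open diamonds are the estimates after the GC trend was removed. TOP2A and NCAPH in acute cells and SMC4 in adapted cells lie farthest above 0 relative to their intervals, and NCAPH2 crosses 0 in acute, crisis and adapted cells when the GC trend is removed.

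Differences from control were larger, on the whole, in the genes with AT-rich transcripts. SMC4 (37.4% GC), SMC2 (37.6%), NCAPG (38.7%) and TOP2A (38.9%) are AT-rich, and NCAPH2 (61.3%) is the most GC-rich. Over the 10 genes, GC content and the log2 difference from control had a Spearman correlation of -0.72 (acute), -0.59 (crisis), -0.78 (adapted) and -0.94 (recovery). These genes share libraries and the values are descriptive. After the GC correction, all 10 genes were higher in acute cells than in control, with a median of 0.28 against 0.06 over all genes. Of these, 6 of 10 remained at an unadjusted p under 0.05 against 8.08% of all genes. TOP2A in acute cells was then at 0.47 (adjusted p = 0.162, range 0.119 to 0.693 over all alternatives) and NCAPH at 0.37 (adjusted p = 0.269, range 0.194 to 0.801). In recovery cells the median became -0.03, against 0.06 over all genes, with 4 of 10 higher.

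**Figure D4:**
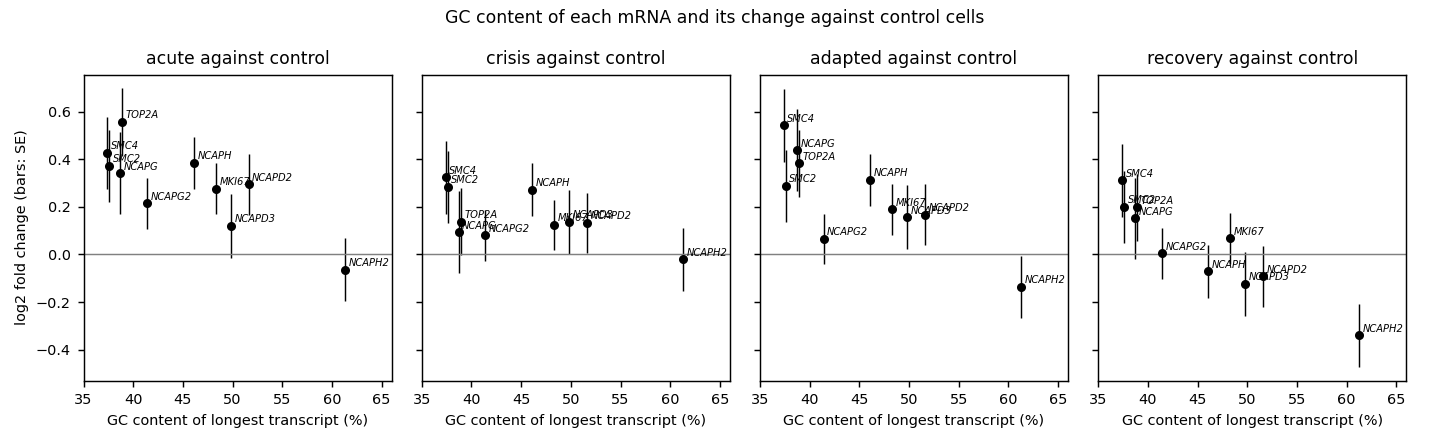
Log2 fold change against control (vertical axis, bars are standard errors) of each gene against the GC content of its longest transcript in percent (horizontal axis) in the 4 later groups. SMC4, at 37.4% GC, is the highest point in crisis, adapted and recovery cells, and NCAPH2, at 61.3% GC, is the lowest point in every panel.

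Across the 15 libraries 2 sets of genes with high correlations were picked out after the values were seen, and they were not cleanly apart. SMC2 and SMC4 had r = 0.91 on the log2 scale, SMC4 and NCAPG 0.88, TOP2A and NCAPG 0.84, TOP2A and SMC2 0.83, and TOP2A and MKI67 0.81. Within groups these were 0.95, 0.88, 0.83, 0.86 and 0.68. NCAPD2, NCAPG2 and NCAPH were the other set, with r = 0.78 for NCAPD2 and NCAPG2 and 0.76 for NCAPG2 and NCAPH. NCAPD2 and NCAPH had r = 0.73, but 0.445 within groups. MKI67 and NCAPH, of different sets, had r = 0.62. NCAPD3, placed in neither set, had r = 0.715 with NCAPH and 0.60 with MKI67. NCAPD2 had r = 0.22 with TOP2A and 0.10 with NCAPG, its own complex partner. These were -0.37 and -0.29 within groups. Over the 15 libraries after the GC correction they were 0.48 and 0.38, so the split between the sets was less marked there. SMC4 and NCAPH, of different sets, then had 0.653, beside 0.679 for TOP2A and SMC4. Within groups after the correction NCAPD2 had -0.145 with TOP2A and -0.04 with NCAPG. TOP2A and SMC2 had 0.743 there, and NCAPD2 and NCAPG2 had 0.764. NCAPH2 ran against NCAPG (-0.51), a value of -0.02 after the GC correction. All values rest on the same 15 libraries, whose base composition differed, and no test was made of them. Of all other genes tested, HMMR (0.91), BRCA1 (0.90), TTK (0.89), KIF11 (0.89) and FAM72C (0.89) were most like TOP2A over the 15 libraries. Their transcripts have 36.2% to 42.8% GC, beside 38.9% for TOP2A. PSMB6 (0.93), CYC1 (0.93), RFNG (0.93), REPIN1 (0.92) and MCM5 (0.92) were most like NCAPH2, and their transcripts have 54.5% to 66.8% GC.

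**Figure D5:**
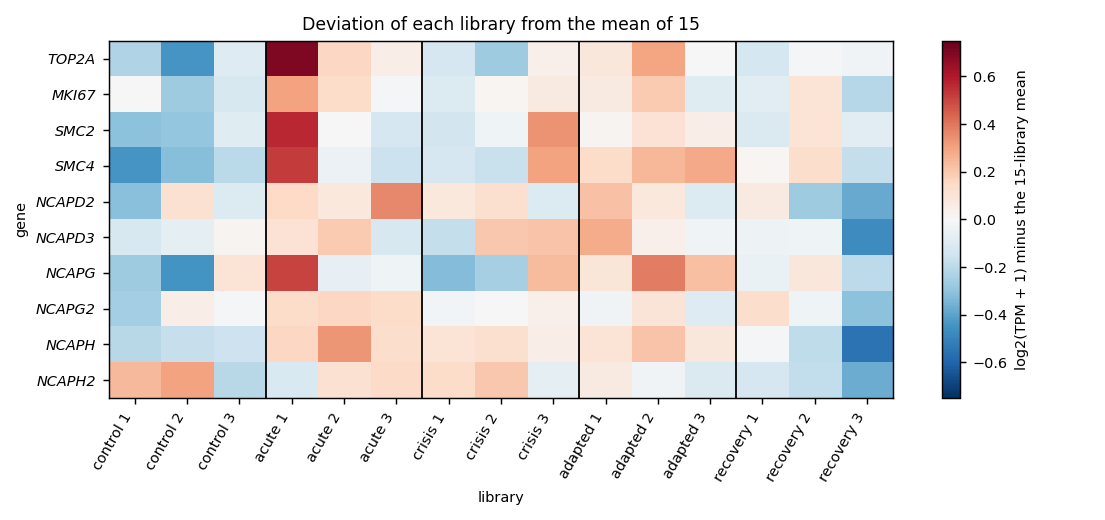
Deviation of log2(TPM + 1) of each gene (rows) in each library (columns) from its mean over the 15 libraries, with red above and blue below it. TOP2A, SMC2, SMC4 and NCAPG are reddest together in acute replicate 1, where TOP2A is 0.70 above its mean, and all 10 genes are below their means in recovery replicate 3.

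Other genes of chromosome structure and mitosis gave the setting for these values. In acute cells 6775 of all 10196 genes had a higher mean than in control and 3421 a lower one. Among 19 G2 and M phase mRNAs in acute cells, 18 had a higher mean than in control, with a median of 0.32, and 14 were higher at an unadjusted p under 0.05 (7.52% of all genes), led by NEK2 (0.51, adjusted p = 0.0894), a centrosomal kinase, and CENPF (0.53, adjusted p = 0.112), a kinetochore protein. Of 21 partners of the condensins and the chromosome scaffold, 18 were higher, with a median of 0.18, and 7 at that p, led by TTK (0.58, adjusted p = 0.328), the spindle checkpoint kinase, and CDK1 (0.47, adjusted p = 0.360), the kinase that activates condensin I. Among 17 subunits of the other SMC complexes, cohesin and SMC5/6, 15 were higher with a median of 0.22 and 4 at that p. Of 7 other topoisomerases and their repair enzymes, 5 were higher with a median of 0.12 and 0 at that p. By contrast, 13 of 17 S phase and proliferation mRNAs were lower, with a median of -0.11, and 5 were lower at that p (1.67% of all genes). Among 14 subunits of the factors that read CHR and CCAAT boxes, 10 were higher, with a median of 0.12. None of these genes was called. The counts and medians of these lists, here and below, come from TPM as deposited. They were not repeated after the GC correction, after rescaling or with a library left out.

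In adapted cells 18 of 19 G2 and M phase mRNAs were again higher than in control, beside 5980 of all 10196 genes. Their median was 0.28, with NEK2 at 0.47 (adjusted p = 0.0478). Of the partners, 18 of 21 were higher with a median of 0.13 and 9 at an unadjusted p under 0.05 (11.4% of all genes), led by SGO1 (0.50, adjusted p = 0.0825), which protects cohesion at centromeres. From adapted to recovery, 18 of 21 partners and 18 of 19 G2 and M phase mRNAs were lower, beside 4139 of all 10196 genes. Their medians were -0.25 and -0.23, beside the -0.22 of the 10 genes. Of the other SMC subunits 7 of 17 were lower, with a median of 0.02. UBE2C, the E2 enzyme of the anaphase-promoting complex, was at -0.50 (adjusted p = 0.244) and CCNB1, cyclin B1, at -0.37 (adjusted p = 0.410). The summed TPM of the 19 G2 and M phase mRNAs ran from 1379 to 1403 (control), 1712 to 1872 (acute), 1468 to 1584 (crisis), 1528 to 1775 (adapted) and 1145 to 1508 (recovery). The value of 1145 was that of recovery replicate 3, while recovery replicates 1 and 2, at 1508 and 1474, were above every control library. The summed TPM of the 10 genes was 832.9 to 916.1 in control and 1033.8 to 1311.2 in acute libraries. In recovery replicate 3 it was 844.8, within the control range. How closely the 2 sums follow each other was not measured. The part of the G2 and M phase mRNAs in the differences of the 10 genes was not tested. In bulk RNA a change in the share of cells in G2 and M phase cannot be told apart from a change in mRNA per cell.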

How the data were processed

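The authors extracted RNA from RPE1-hTERT cells, prepared all libraries at the same time, ran Kallisto against hg38 on single-end reads and deposited TPM per gene. Neither strand setting nor annotation release is given in the sources used here. TPM are not counts and keep no depth, so no count model was fitted and no counting interval could be given. The deposited log2 fold changes and adjusted p-values of the authors' own DESeq2 comparisons were not used. Of 60603 entries, 45 pseudoautosomal copies were dropped, which left 60558 genes. 0 columns of values were without a sample.

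Values were transformed to log2(TPM + 1), which understates the change of low genes. The 10196 genes averaging 5 TPM or more were fitted with limma 3.58.1 in R 4.3.3 (lmFit, contrasts.fit, eBayes with a trend), with the 5 groups of 15 libraries, 2-sided tests and Benjamini-Hochberg adjustment over all genes tested, and called at an adjusted p under 0.01. Pseudocounts of 0.1 and 5 TPM, other filters, median-of-ratios rescaling, removal of a loess on GC content (span 0.3, GENCODE annotation, 10185 genes), a replicate block, no variance trend, fits of 6 libraries, a threshold of 0.05 and omission of each library were tried. The fit was also run on simulated data. Noise there was drawn independently for each gene and without a trend in GC content. The simulation therefore cannot show how the fit behaves under differences in base composition. Positions of motifs are counted from the annotated start.

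Genes named are the 10 genes themselves, CCNE1, up to 3 genes with the smallest p of each list, the 5 genes most correlated with TOP2A and with NCAPH2, and overlapping genes. The genes and lists were chosen with earlier results of these data known. The markers PTPRC, KRT8, VIM, CD68, RPE65, RLBP1 and TYR come from lists of cell type markers. Replicates are separate cultures. The p-values set each difference against a spread between replicates that was pooled over the 5 groups and moderated over genes. That spread also holds the differences in base composition between libraries. Figures were drawn with matplotlib 3.10.9.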

Additional observations from a re-analysis of the deposited data

How the results depend on the processing

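None of the 10 genes was called at an adjusted p under 0.01 in any comparison under any alternative. Of 1120 values of single genes, 62 changed sign, and 0 of these had an unadjusted p under 0.05 as reported. Depth is unknown, so precision rests on 3 libraries a group.

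After the GC trend was removed, with or without a replicate block, NCAPH2 was at 0.06 in acute, 0.07 in crisis and 0.08 in adapted cells against control and at 0.02 in adapted against crisis. NCAPG2 was at -0.05 in adapted and -0.13 in recovery cells against control, NCAPG at -0.02 in recovery, NCAPD3 at -0.00 in crisis against acute and SMC2 at -0.10 in adapted against crisis. After median-of-ratios rescaling the median of the 10 genes in crisis against control was 0.05, NCAPG2 was at -0.00 in crisis and -0.07 in recovery against control and at 0.02 in adapted against crisis, MKI67 at -0.01 in recovery and NCAPD3 at -0.00 in crisis against acute. With a mean of log2 values, the log2 ratio of condensin I to condensin II in adapted minus control cells was 0.28 in place of 0.18. The cause was not tested.

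Leaving out each library in turn gave a median in acute against control of 0.21 (without acute replicate 1) to 0.39. Against control, NCAPH2 ranged from -0.23 to 0.03 in acute and -0.18 to 0.07 in crisis, NCAPG2 from -0.01 to 0.14 in crisis, -0.03 to 0.13 in adapted and -0.09 to 0.12 in recovery, and NCAPG from -0.08 to 0.24 in crisis. In recovery MKI67 ranged from -0.01 to 0.14, NCAPD2 from -0.22 to 0.02, NCAPD3 from -0.20 to 0.02 and NCAPH from -0.19 to 0.08. In crisis against acute SMC2 ranged from -0.23 to 0.12, SMC4 from -0.25 to 0.11, NCAPH2 from -0.04 to 0.12 and NCAPD3 from -0.07 to 0.15. In adapted against crisis SMC2 ranged from -0.09 to 0.15, NCAPD3 from -0.11 to 0.09, NCAPD2 from -0.04 to 0.12, NCAPG2 from -0.07 to 0.03, MKI67 from -0.00 to 0.14 and NCAPH from -0.00 to 0.07. In recovery against adapted NCAPG2 ranged from -0.16 to 0.06.

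With a replicate block the median in acute against control was 0.32, as without it. Deviations correlated at r over 0.1 in 11 of 30 pairs with the same number (median 0.05) and in 15 of 60 with other numbers (median -0.03), and 6 of 15 libraries correlated best with their own number. The numbers were therefore not taken as pairs, which does not show that no origin is shared.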
